A study of Rattus norvegicus with 13 samples.

Results

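The insulin-like growth factor (IGF) system was examined in the ventricular zone (VZ) of newborn rats through 10 transcripts, namely the ligands *Igf1* and *Igf2*, the receptors *Igf1r*, *Igf2r* and *Insr*, the adaptor *Irs2* and the binding proteins *Igfbp2*, *Igfbp3*, *Igfbp4* and *Igfbp5*. They were chosen by gene name, and all 10 were found among the 13129 gene names in the data, each with 1 row. RNA was sequenced from the posterior VZ of male Long Evans pups on postnatal day (PN) 2. The 7 control pups were the euthyroid offspring of dams on vehicle (0 ppm), and the 6 PTU exposed pups (PTU pups) were the hypothyroid offspring of dams that drank 3 ppm propylthiouracil (PTU), an inhibitor of thyroid hormone synthesis, while pregnant or nursing. Each pup came from a different litter. PTU reached the pups through the dam, so the exposure was not limited to the brain or to the VZ. The layer was cut out by laser according to its pseudostratified shape, and the study states that choroid plexus cells were not part of the captured material. It also reports some degradation of the captured RNA, whereas RNA of its slide control cells was intact.

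IGF1 and IGF2 are small secreted hormones that bind the IGF1 receptor, a tyrosine kinase closely related to the insulin receptor, which recruits insulin receptor substrates and signals through the PI3K, AKT and mTOR arm and the RAS and MAPK arm to favor growth, proliferation and survival. The IGF2 receptor has no kinase and clears IGF2 by carrying it to lysosomes, whereas the IGF binding proteins hold the ligands in extracellular fluid and either restrain or prolong their action. In the developing brain, IGF2 is known as a product of the choroid plexus and the meninges that is released into the cerebrospinal fluid bathing the VZ, and IGF1 as a product of neurons and microglia.

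The study gives an average sequencing depth over its samples. For single pups depth is known only as an estimate, since no read counts were used. Low values were whole multiples of 1 step in no more than 90.5% of cases. From that step, about 22300000 to 43500000 reads lay behind the deposited normalized counts in control pups and about 28400000 to 44400000 in PTU pups. All 10 markers of VZ progenitors were detected in every pup, with a summed level of 75130 to 104572 normalized counts in controls and 62176 to 82649 in PTU pups. Markers of other cells were present too, those of the choroid plexus included, despite the stated dissection. The 13 choroid plexus markers summed to 52978 to 148498 normalized counts in controls (median 120013) and to 24759 to 106573 in PTU pups (median 59642), and *Ttr*, the transthyretin gene, made up 82.5% of the list. Where this RNA came from was not tested. In the VZ as sampled here, fewer cells of a type and less RNA per cell cannot be told apart.

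To show the regulatory sequence of the genes the results turn on, the 250 bases before the transcription start are given for *Igf2* and *Igfbp2*, whose levels varied together over the pups, and for *Igfbp5*, which had the smallest p between the groups. The sequences are those of RefSeq in build GRCr8, a later build than the mRatBN7.2 to which the reads were aligned, and 9 of the 10 genes matched an entry. *Irs2* was not matched. *Igf2* has 2 start sites in that table, at chr1:207253981-207254230 and chr1:207250476-207250725 on the minus strand, and which of them the measured transcript uses was not examined. The *Igfbp2* window lies at chr9:81864561-81864810 on the plus strand and the *Igfbp5* window at chr9:81914188-81914437 on the minus strand of the same chromosome. Each sequence reads 5′ to 3′ on the strand of its gene, and capitals mark a match to a searched motif.
Igf2 start 1: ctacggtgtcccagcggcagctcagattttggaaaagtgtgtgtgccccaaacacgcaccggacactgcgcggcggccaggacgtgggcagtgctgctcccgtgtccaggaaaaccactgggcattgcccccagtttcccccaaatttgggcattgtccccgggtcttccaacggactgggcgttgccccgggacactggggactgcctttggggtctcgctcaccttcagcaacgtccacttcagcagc
Igf2 start 2: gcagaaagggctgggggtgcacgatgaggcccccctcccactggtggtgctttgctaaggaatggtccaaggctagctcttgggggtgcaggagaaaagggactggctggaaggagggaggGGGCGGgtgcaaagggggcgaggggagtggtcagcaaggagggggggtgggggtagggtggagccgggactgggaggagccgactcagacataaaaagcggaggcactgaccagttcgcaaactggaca
Igfbp2: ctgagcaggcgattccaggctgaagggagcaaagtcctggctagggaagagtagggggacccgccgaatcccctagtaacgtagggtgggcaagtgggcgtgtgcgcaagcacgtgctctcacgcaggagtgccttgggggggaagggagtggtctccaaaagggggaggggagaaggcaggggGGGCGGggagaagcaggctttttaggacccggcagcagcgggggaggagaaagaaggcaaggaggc
Igfbp5: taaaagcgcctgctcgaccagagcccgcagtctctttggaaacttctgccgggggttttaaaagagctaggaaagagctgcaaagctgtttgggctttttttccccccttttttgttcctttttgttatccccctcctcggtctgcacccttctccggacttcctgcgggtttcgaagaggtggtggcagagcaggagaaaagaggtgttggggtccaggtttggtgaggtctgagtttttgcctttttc

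The motifs searched on both strands were the GC box GGGCGG, the TATA box TATAAA, the nuclear receptor site AGGTCA, the FoxO site GTAAACA and the CCAAT box CCAAT. The second *Igf2* start held 1 GC box, 129 bases before the start, and *Igfbp2* held 1, 66 bases before the start. The first *Igf2* start and *Igfbp5* held none of the 5 motifs. Over the 10 windows of the 9 genes, 4 held a GC box, which 30.5% of all 33469 windows of the same length hold. The AGGTCA and CCAAT letters each stood in 0 of the 10 windows, against 14.1% and 34.0% of all windows. *Insr* held 1 FoxO site (3.21% of all windows) and *Igfbp4* 1 TATA box (12.9%). The *Igfbp5* window had a GC content of 51.6%, close to the median of 51.2% over all windows, whereas the windows of *Igf2* and *Igfbp2* had 62.4 to 64.0%.

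None of the 10 transcripts reached an adjusted p of 0.05 between PTU exposed and control pups in limma, and neither did any of the 14606 rows tested (0% called, smallest adjusted p = 0.0981). The study's own DESeq2 comparison of the same pups did report differentially expressed genes at an FDR of 0.05. The 0% given here is that of the limma fit. At an unadjusted p under 0.05, 1 of the 10, *Igfbp5*, was lower after PTU exposure, beside 8.2% of all rows lower and 16.3% in either direction. Values of the groups overlapped for all 10, and over all rows 0.596% did not overlap. The log2 fold change was below 0 for 7 of the 10 transcripts (median -0.13, against 0.00 over all rows), although with all pups set to equal totals only 4 were below 0, since *Igf1r*, *Igf2r* and *Irs2* moved to 0.13, 0.14 and 0.021 while the median of all rows moved to 0.20.

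**Figure D1:**
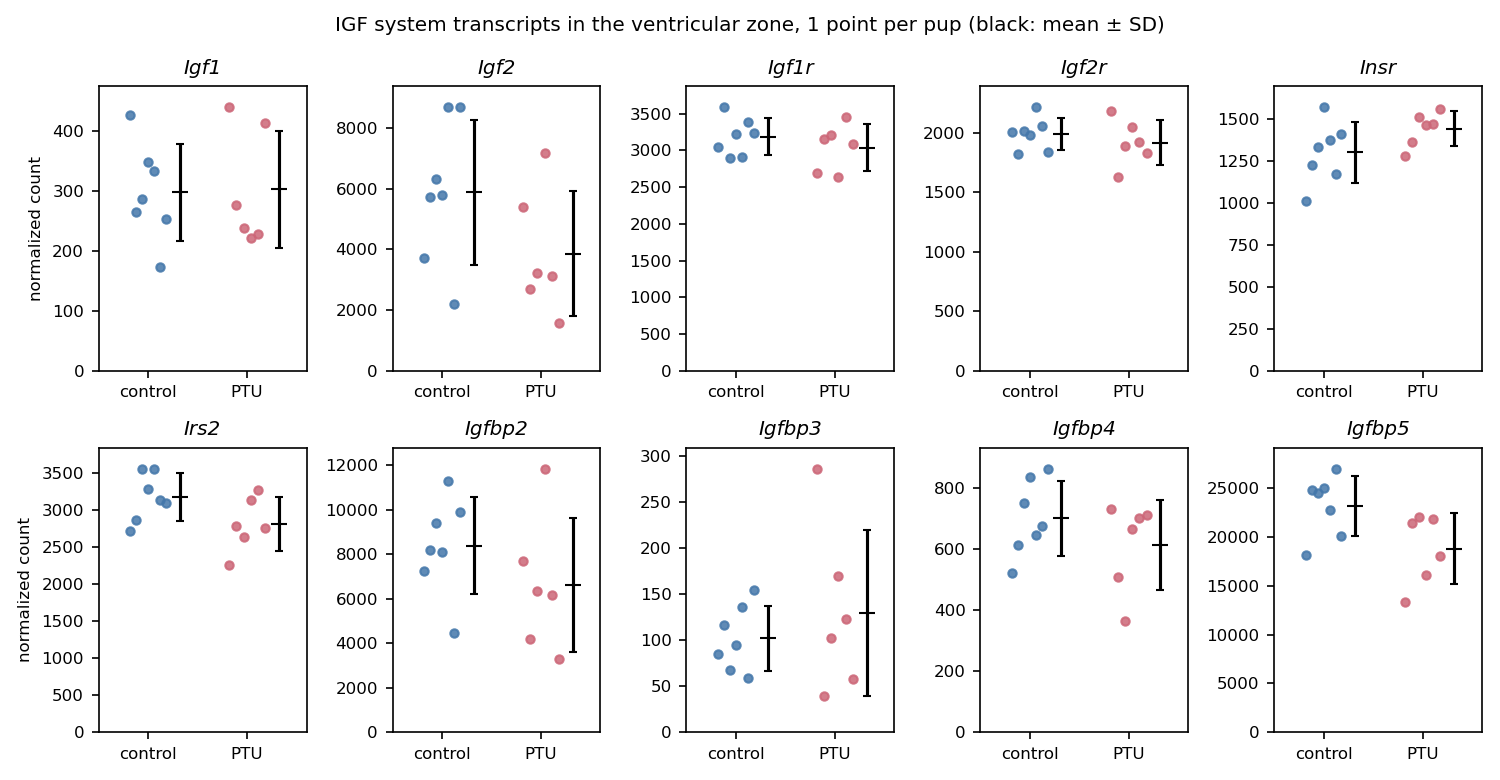
Normalized counts of the 10 IGF system transcripts (y axis, from 0, a separate scale for each panel) in 7 control and 6 PTU pups (x axis), with 1 point per pup and the mean ± SD in black. The groups overlapped in every panel, and all 6 PTU pups were below the control mean of 23156 for *Igfbp5*.

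Among the ligands, *Igf2* had the larger coefficient of variation (40.5% in controls and 53.0% in PTU pups, against 27.1% and 32.4% for *Igf1*), and *Igf1* averaged nearly the same in both groups. *Igf2* ranged from 2212 to 8685 normalized counts in controls (median 5790) and from 1576 to 7187 in PTU pups (median 3173). Control pup 6 and PTU pup 6 were the lowest of their groups, 5 of 6 PTU pups were below the control mean, and PTU pup 4 was above it. The means were 5877 ± 2379 (SD, n = 7) and 3865 ± 2049 (SD, n = 6), or 65.8% of control, a log2 fold change of -0.65 (standard error, SE, 0.33, 95% interval -1.34 to 0.05, limma adjusted p = 0.339). The exact permutation test (two-sided, unadjusted) gave p = 0.143, and the values of the groups overlapped. The log2 fold change was -0.42 without PTU pup 6 and -0.86 without control pup 6 (-0.44 with equal totals).

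*Igf1* ranged from 173 to 426 normalized counts in controls (median 286) and from 222 to 440 in PTU pups (median 257). PTU pups 1 and 6 were high, at 440 and 413, and the other 4 lay in the lower part of the control range. The means of 298 ± 80.8 (SD, n = 7) and 303 ± 97.9 (SD, n = 6) gave a log2 fold change of 0.01 (95% interval -0.44 to 0.47, limma adjusted p = 0.984), or 0.21 with equal totals.

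Of the 10 transcripts, the binding protein *Igfbp5* had the smallest p. *Igfbp5*, whose product binds IGFs and associates with the extracellular matrix, ranged from 18160 to 26963 normalized counts in controls (median 24488) and from 13286 to 22022 in PTU pups (median 19726). All 6 PTU pups were below the control mean, 3 of them below the lowest control, and 5 of 7 controls were above the highest PTU exposed pup. The means were 23156 ± 3084 (SD, n = 7) and 18779 ± 3603 (SD, n = 6), or 81.1% of control. The log2 fold change was -0.31 (SE 0.13, 95% interval -0.58 to -0.05), with an unadjusted p of 0.0245 in limma, an adjusted p of 0.244 and an exact permutation p of 0.042 (two-sided, unadjusted). The unadjusted limma p was no longer under 0.05 when PTU pup 1, PTU pup 4 or control pup 6 was left out (log2 fold change -0.22, -0.27 and -0.28) or when all pups were set to equal totals (-0.11).

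*Igfbp2*, a binding protein abundant in fetal tissue and cerebrospinal fluid, ranged from 4490 to 11318 normalized counts in controls (median 8195) and from 3322 to 11860 in PTU pups (median 6278). As for *Igf2*, pup 6 was the lowest in either group, control pup 5 the highest control and PTU pup 4 the highest PTU exposed pup. The means of 8385 ± 2177 (SD, n = 7) and 6614 ± 3019 (SD, n = 6) gave a log2 fold change of -0.41 (SE 0.25, 95% interval -0.93 to 0.11, limma adjusted p = 0.409). The exact permutation p was 0.19 (two-sided), and the control range lay inside that of the PTU pups. Without PTU pup 6 the log2 fold change was -0.24, and without PTU pup 4 it was -0.61 (-0.21 with equal totals).

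*Igfbp4*, which encodes an inhibitory binding protein, had 521 to 864 normalized counts in controls (median 676) and 364 to 731 in PTU pups (median 684). PTU pup 3 was the lowest of all pups, and the log2 fold change of -0.21 (95% interval -0.56 to 0.13, limma adjusted p = 0.533) moved to -0.07 without it and to -0.011 with equal totals. *Igfbp3*, which encodes the main IGF carrier of serum, was a low transcript with 59.0 to 154 normalized counts in controls (median 94.98) and 39.6 to 287 in PTU pups (median 113). Its coefficient of variation was 69.2% in PTU exposed and 34.7% in control pups, and the log2 fold change of 0.13 (95% interval -0.67 to 0.93, limma adjusted p = 0.896) was -0.16 without PTU pup 1, the highest, and 0.41 without PTU pup 2, the lowest.

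*Igf1r* and *Igf2r* had the smallest coefficients of variation of the 10 transcripts in controls, 7.97% and 6.71%. *Igf1r*, the signaling receptor of both ligands, ranged from 2897 to 3588 normalized counts in controls (median 3220) and from 2641 to 3451 in PTU pups (median 3121). *Igf2r*, the clearance receptor of IGF2, ranged from 1820 to 2213 in controls (median 2004) and from 1628 to 2181 in PTU pups (median 1903). For *Igf1r*, 2 of 6 PTU pups were below the lowest control and 1 control was above the highest PTU exposed pup. For *Igf2r*, 1 PTU exposed pup was below all controls and 1 control was above all PTU pups. The other pups lay in a range that both groups shared, and coefficients of variation were 6.71 to 10.3%. Their log2 fold changes were -0.07 (95% interval -0.24 to 0.10, limma adjusted p = 0.694) and -0.06 (95% interval -0.23 to 0.11, limma adjusted p = 0.742). With 1 pup left out they ranged from -0.108 to -0.031 for *Igf1r* and from -0.098 to -0.014 for *Igf2r*.

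*Insr*, the insulin receptor, ranged from 1014 to 1570 normalized counts in controls (median 1335) and from 1280 to 1561 in PTU pups (median 1467). The PTU pups clustered in the upper part of the control range, 5 of 6 above the control mean and 3 controls below all of them. The log2 fold change was 0.16 (SE 0.10, 95% interval -0.05 to 0.36, limma adjusted p = 0.425, exact permutation p = 0.117, two-sided), or 0.36 with equal totals. With 1 pup left out it ranged from 0.10 to 0.21, lowest without control pup 1.

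*Irs2*, the adaptor that links these receptors to PI3K, ranged from 2719 to 3557 normalized counts in controls (median 3137) and from 2262 to 3274 in PTU pups (median 2770). Of the PTU pups, 2 were below the lowest control, and 3 controls were above the highest PTU exposed pup. The means of 3173 ± 320 (SD, n = 7) and 2808 ± 363 (SD, n = 6) corresponded to 88.5% of control. The log2 fold change was -0.18 (SE 0.09, 95% interval -0.38 to 0.02, limma adjusted p = 0.348, exact permutation p = 0.0787, two-sided).

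**Figure D2:**
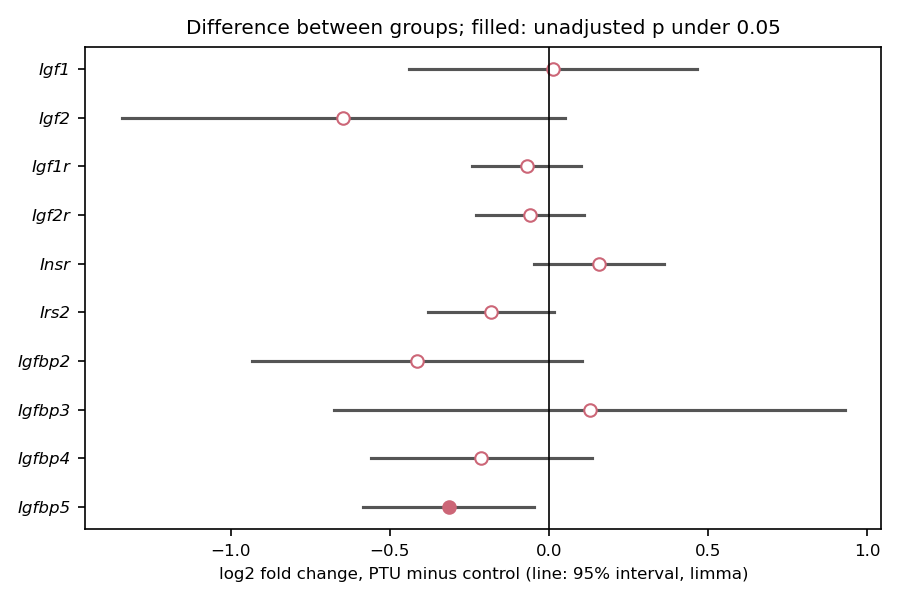
Log2 fold change of each transcript (x axis, PTU minus control, log2 scale) with its 95% interval from limma, 1 transcript per line on the y axis. Only the interval of *Igfbp5* (-0.58 to -0.05) lies below 0 as a whole, and those of *Igf2* and *Igfbp3* are the widest. With all pups set to equal totals, *Igf1r*, *Igf2r* and *Irs2* lie above 0.

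*Igf2* and *Igfbp2* varied together from pup to pup, and both varied with the markers of choroid plexus. With log2 values centred within the groups, the correlation between *Igf2* and *Igfbp2* over 13 pups was r = 0.96 (permutation p = 1e-05, the smallest that 100000 permutations can give, adjusted p = 0.00045 over 45 pairs) and rho = 0.93 (permutation p = 1e-05). It was 0.97 within either group, and 0.91 without control pup 6 and PTU pup 6, the pups farthest from the median of *Igf2*. These 45 pairs were computed after the values had been seen, and both values of a pair come from 1 library with 1 size factor. No other pair reached an adjusted p of 0.05 for r. By rank, *Igfbp3* also varied with *Igf2* (rho = 0.81, permutation p = 0.00191, adjusted p = 0.031, r = 0.76, permutation p = 0.00495, adjusted p = 0.111) and with *Igfbp2* (rho = 0.84, permutation p = 0.00207, adjusted p = 0.031, r = 0.77, permutation p = 0.00781, adjusted p = 0.117). With *Igf2*, r was 0.71 without the same pair of pups, and with *Igfbp2* it was 0.75 without PTU pups 4 and 6, the farthest from the median of *Igfbp2*.

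*Igf2* correlated with the summed choroid plexus markers at r = 0.91 (permutation p = 0.00014, adjusted p = 0.0078 over 60 relations) and rho = 0.87 (permutation p = 0.00047). Within controls r was 0.86 and within PTU pups 0.96, and without control pup 6 and PTU pup 6 it was 0.80. *Igfbp2* correlated with the same markers at r = 0.90 (permutation p = 0.00031, adjusted p = 0.0078) and rho = 0.82 (permutation p = 0.00224), with 0.79 when those pups were left out. Within the groups r was 0.88 and 0.92, so the relation held in controls and in PTU pups alike. The other transcripts gave correlations with choroid plexus markers from -0.41 for *Igf1r* to 0.66 for *Igfbp3* (adjusted p = 0.251), and *Igfbp5* gave -0.33, although with equal totals *Igf1r* and *Igfbp5* gave 0.28 and 0.10. For *Igf2* and *Igfbp2*, r with equal totals was 0.91 and 0.93.

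**Figure D3:**
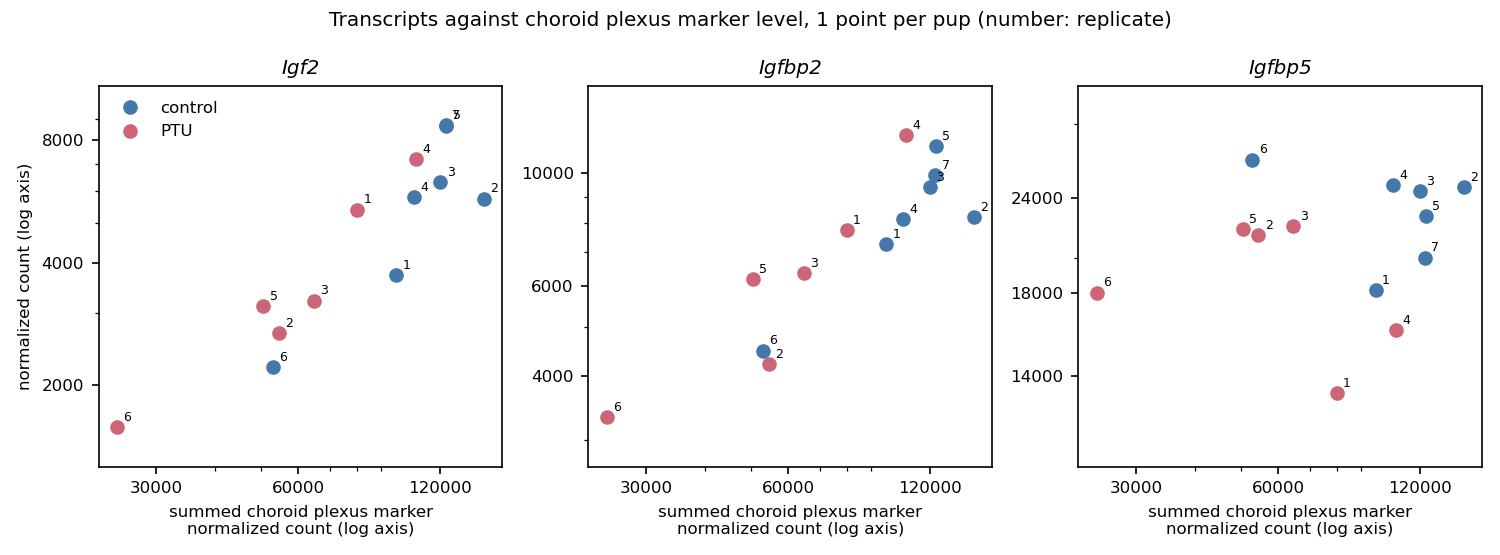
Normalized counts of *Igf2*, *Igfbp2* and *Igfbp5* (y axes, log scale) against the summed normalized counts of 13 choroid plexus markers (x axes, log scale), with 1 point per pup, colored by group and numbered by replicate. For *Igf2* and *Igfbp2*, pup 6 of each group is lowest and the points of both groups climb together (r = 0.91 and 0.90 with log2 values centred within the groups), whereas for *Igfbp5* r was -0.33 (0.10 with equal totals).

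The choroid plexus markers themselves were lower in PTU pups for 13 of 13 genes (median log2 fold change -0.76, or -0.56 with all pups set to equal totals), 8 of them with an unadjusted p under 0.05, beside 8.2% of all rows, and 3 with equal totals. With their summed level as a covariate, an alternative chosen after seeing the data, the log2 fold change of *Igf2* was 0.32 (SE 0.19, limma adjusted p = 0.53) and that of *Igfbp2* 0.29 (SE 0.15, limma adjusted p = 0.471). The direction of both was thus the opposite of that without the covariate, while *Igfbp5* was at -0.43 (SE 0.16, limma adjusted p = 0.349). With this covariate *Igfbp3* was at 0.88 in place of 0.13 (SE 0.40, limma adjusted p = 0.422), with an unadjusted p under 0.05. Neuron markers were higher in 10 of 12 genes (9 with TMM factors), with a summed level of 45894 to 72645 normalized counts in controls and 64660 to 97232 in PTU pups. With the neuron level as covariate, the log2 fold changes of *Igf2*, *Igfbp2*, *Irs2* and *Igfbp5* were -0.15, -0.03, -0.03 and -0.24, nearer to 0 than without it, whereas those of *Igfbp4* and *Igf1r* were -0.37 and -0.11, farther from 0. All 10 VZ progenitor markers were lower (9 with equal totals), and with their level as covariate *Igf2*, *Igfbp2*, *Irs2* and *Insr* were at -0.36, -0.12, -0.11 and 0.029, nearer to 0 than without it, and *Igfbp5* was at -0.30. With either the neuron or the progenitor level as covariate the unadjusted limma p of *Igfbp5* was not under 0.05. With the progenitor level, *Igfbp4* was at -0.52 (SE 0.21, limma adjusted p = 0.999), with an unadjusted p under 0.05.

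The 7 meningeal fibroblast markers in the data, without *Dcn*, *Lum* and *Ogn*, which are not analysed here, summed to 1191 to 5244 normalized counts in controls and 966 to 5797 in PTU pups. *Igf2* correlated with them at r = 0.88 (permutation p = 0.00039, adjusted p = 0.0078, rho = 0.77, permutation p = 0.00282) and *Igfbp3* at r = 0.85 (permutation p = 0.00098, adjusted p = 0.0147, rho = 0.86, permutation p = 0.00107). Without control pup 6 and PTU pup 6 these were 0.73 and 0.87. *Igfbp2* gave r = 0.85 (permutation p = 0.0017, adjusted p = 0.0204, rho = 0.85, permutation p = 0.00101). Its r was 0.87 within controls and 0.84 within PTU pups. Without control pup 6 and PTU pup 6 it was 0.66, for which no p was computed. The correlation of *Igf1* with the 10 microglia markers was r = 0.015 (0.49 within controls and -0.36 within PTU pups). With equal totals it was 0.75, but r with these markers was then higher for all 10 transcripts, at 0.033 to 0.83 in place of -0.49 to 0.26, so the move was not particular to *Igf1*. These markers summed to 2361 to 3025 normalized counts in controls and 2208 to 2958 in PTU pups. The other marker lists gave no correlation with an adjusted p of at most 0.05. No marker in any list was at 0 in any pup.

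**Figure D4:**
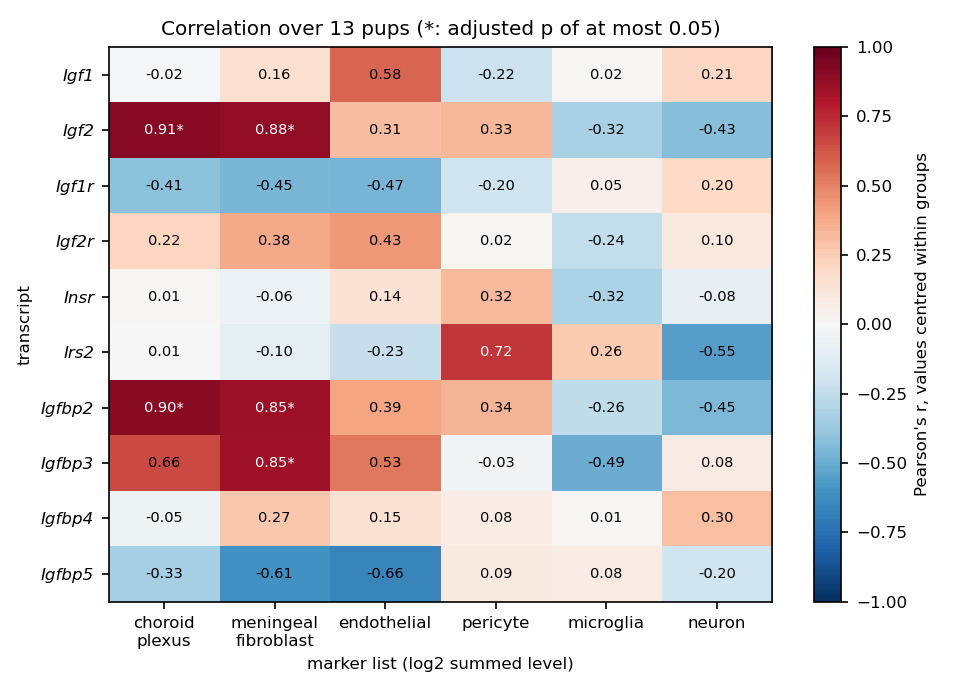
Pearson's r over 13 pups, with log2 values centred within groups, between each IGF system transcript (rows) and the summed level of each marker list (columns), on a color scale from -1 to 1. The 5 cells with an asterisk, for *Igf2*, *Igfbp2* and *Igfbp3*, had an adjusted p of at most 0.05 over 60 relations.

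Among the 11025 other named genes with a mean of at least 100 normalized counts, the 5 most like *Igf2* over the 13 pups were *Clic6* (r = 0.97), *Ace*, *Wfikkn2*, *Vat1l* and *Ctsd* (r = 0.96 each). *Clic6* is itself among the choroid plexus markers. Those most like *Igfbp5* included *Kdm8* (r = 0.93), *Eola2* (0.92), *Lig3* (0.91) and *Nfkbil1* (0.90). For *Igf1* they were *Clta* (0.89), *Capn5* (0.89), *Cd84* (0.86), *Glrb* (0.85) and *Radil* (0.85). These values describe likeness of pattern over 13 pups and were not tested.

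Beyond the 10 transcripts, 82 genes from 5 lists of the wider pathway were tested, and 11 of them had an unadjusted p under 0.05 (13.4%, against 16.3% of all rows), 7 higher and 4 lower. None reached an adjusted p of 0.05 in limma (smallest 0.15). Of 13 other genes listed with the IGF system, 2 were lower and 0 higher at an unadjusted p under 0.05 (0 and 1 with equal totals), beside 8.2% and 8.11% of all rows, and of those 2 only *Igfbp7* is an IGF binding protein relative. *Igfbp7*, which encodes a secreted protein with low affinity for IGFs, averaged 1295 ± 304 normalized counts among the 7 controls and 948 ± 220 among the 6 PTU pups (SD, log2 fold change -0.44, limma adjusted p = 0.218). *Igdcc4*, an immunoglobulin superfamily membrane protein that is neither a ligand nor a receptor of the IGFs, averaged 5448 ± 817 and 4625 ± 632 (log2 fold change -0.23, limma adjusted p = 0.292). The list also held *Vgf*, a neuropeptide precursor that does not belong to the IGF system either, at a log2 fold change of 0.88 (limma adjusted p = 0.466).

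In the PI3K, AKT and mTOR arm, 3 of 30 genes were higher and 1 lower at an unadjusted p under 0.05, beside 8.11% and 8.2% of all rows. *Tsc1*, a brake on mTOR, averaged 1053 ± 103 normalized counts in controls and 1307 ± 208 in PTU pups (log2 fold change 0.30, limma adjusted p = 0.199). *Pik3cd*, a catalytic PI3K subunit, and *Rps6*, a ribosomal protein phosphorylated downstream of mTOR, had log2 fold changes of 0.41 and 0.16 (limma adjusted p = 0.256 and 0.278). *Inppl1*, a lipid phosphatase that opposes PI3K, averaged 2216 ± 182 and 1831 ± 359 (log2 fold change -0.29, limma adjusted p = 0.22). Of the 30 genes, 19 were above 0 and the median was 0.04, whereas with equal totals 28 were above 0 and the median was 0.24, beside 0.20 over all rows.

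In the RAS and MAPK arm, 3 of 16 genes were higher at an unadjusted p under 0.05 and 0 lower, beside 8.11% and 8.2% of all rows. They were the adaptor *Shc2* (122 ± 48.4 and 218 ± 102 normalized counts, log2 fold change 0.80, limma adjusted p = 0.231), the kinase *Mapk3* (0.25, limma adjusted p = 0.298) and the exchange factor *Sos1* (0.18, limma adjusted p = 0.302). With TMM factors 1 of these 16 genes had such a p. Of 13 FoxO target genes, which FoxO factors induce when AKT is inactive, 1 was lower, *Klf15* (699 ± 308 and 471 ± 112, log2 fold change -0.51, limma adjusted p = 0.279), and 0 were higher, beside the same shares of all rows. With all pups set to equal totals, 0 genes of these lists were lower at an unadjusted p under 0.05, beside 0.554% of all rows.

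These counts depended on single pups, and with 1 pup left out 6.12 to 10.3% of all rows were higher and 6.14 to 10.2% lower at such a p. In the PI3K, AKT and mTOR arm, 1 gene was higher at an unadjusted p under 0.05 without PTU pup 5 or control pup 3, and 5 without PTU pup 2 or control pup 6, while 3 were lower without PTU pup 2 and 2 without control pup 7. In the RAS and MAPK arm, 0 were higher without PTU pup 1, and 1 without PTU pup 6 or control pup 3, while 1 was lower without PTU pup 4 or 5, or control pup 6. Of the other IGF system genes, 1 was lower without PTU pup 1 or 3, or control pup 3, 5 or 7. The lower genes numbered 3 without PTU pup 4 or control pup 1 or 2. In this list 2 were higher without PTU pup 2 and 1 without control pup 5 or 7. Of the FoxO targets, 2 were lower without PTU pup 5, and 0 without PTU pup 1, 2 or 6, or control pup 3, 5 or 7, while 1 was higher without PTU pup 1.

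*Igf2* and *Igf2r* are counted among the imprinted genes, although which allele was expressed in this tissue was not measured. Beside them, 11 other imprinted genes were tested. Of these, 1 of 11 (9.09%) was higher at an unadjusted p under 0.05, close to the 8.11% of all rows. It was *Dlk1*, a growth regulator related to the Notch ligands. *Dlk1* was a low transcript, with 20.4 ± 10.6 normalized counts among the 7 controls and 61.5 ± 32.4 among the 6 PTU pups (SD). The log2 fold change was 1.53 (SE 0.46, limma adjusted p = 0.15, exact permutation p = 0.00932, two-sided). All 6 PTU pups were above the control mean. The count of imprinted genes higher at an unadjusted p under 0.05 was 4 without PTU pup 4, 2 without PTU pup 2 or control pup 1, 2, 5 or 7, and 3 with equal totals, where 10.8% of all rows were higher. Imprinted genes lower at such a p numbered 2 without PTU pup 1 or control pup 6, and 1 without PTU pup 3 or 4. *H19*, the neighbor of *Igf2* that is expressed from the other parental allele, had a log2 fold change of -0.16 (limma adjusted p = 0.687), and *Grb10*, an adaptor that inhibits the insulin and IGF1 receptors, one of 0.32 (limma adjusted p = 0.33).

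**Figure D5:**
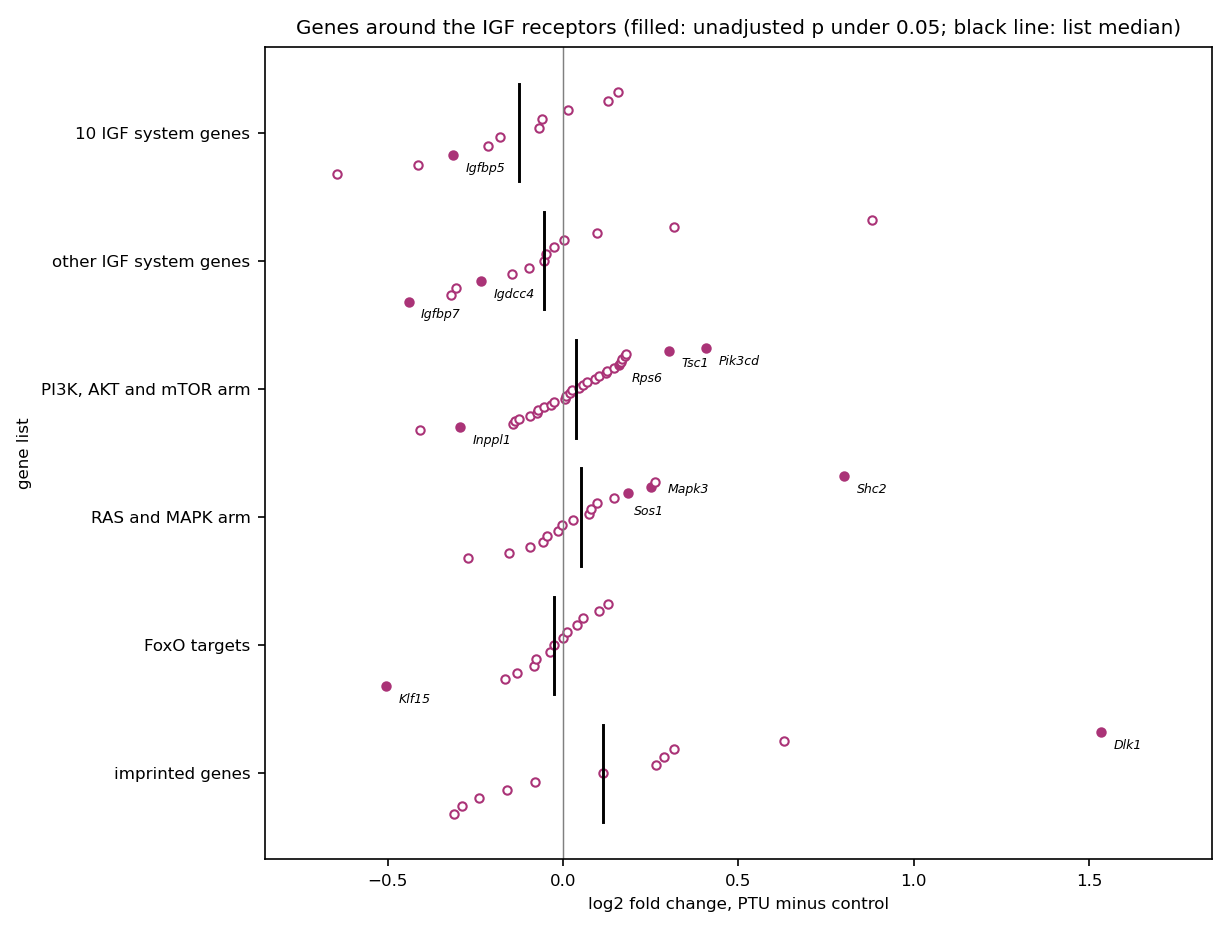
Log2 fold change (x axis, PTU minus control) of every tested gene in the 6 lists (y axis), with 1 point per gene spread vertically by rank, filled where the unadjusted limma p was under 0.05, and a black line at each list's median. Medians lie from -0.13 for the 10 IGF system transcripts to 0.11 for imprinted genes. With all pups set to equal totals they lie from 0.08 to 0.31.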

How the data were processed

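RNA-Seq of the laser captured VZ was deposited as 1 table for 7 control and 6 PTU exposed pups. According to the methods and the submitters' processing notes, the authors used Trimmomatic for trimming, STAR 2.7.8a for alignment to mRatBN7.2 and Partek's E/M model for counting, in which reads shared by several transcripts are divided among them, followed by median ratio scaling. The deposited normalized counts are thus a scaled signal rather than whole reads. The methods name a RefSeq annotation, whereas rows carry Ensembl identifiers. The authors' DESeq2 comparison stands in the same table as p-value, FDR, ratio, log2 ratio, fold change and group mean columns, none of which was used.

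Rows with a mean of at least 10 (14606 of 14716) entered limma 3.58.1 in R 4.3.3 as log2(normalized count + 1) (empirical Bayes with a variance trend, Benjamini-Hochberg over all rows, threshold 0.05). The added 1 shrinks the fold changes of low transcripts. An exact permutation test over the 1716 possible regroupings was run for each transcript (smallest possible p = 0.000583). For correlations, log2 values were centred on the group mean and permuted 100000 times inside each group. Low values from 20 to 150 were whole multiples of 1 step in 88.9 to 90.5% of cases (tolerance 0.05 of a step), short of the 95% needed to recover reads, so no count model was used. The step gave the estimated reads. The 3 highest rows took 23.9 to 60.1% of a pup's total.

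The 10 transcripts and all lists were chosen with earlier results of these data known. Text names all 10, from each other list up to 3 genes per direction with the smallest p under 0.05, and the 5 rows most like *Igf2*, *Igf1* and the transcript with the smallest p. *H19*, *Grb10* and *Vgf* were added after their values were seen. For *Igfbp5*, 1 of the 5 rows is not reported here. Marker lists of ependymal, oligodendrocyte lineage and erythrocyte cells were summed but not correlated. The ependymal list was lower in 4 of 5 genes, the oligodendrocyte lineage list higher in 5 of 5, and the 1 erythrocyte gene was lower. Endothelial markers were higher in 6 of 7 genes, pericyte markers lower in 5 of 7 and microglia markers lower in 4 of 10. With equal totals, 2 of 5 ependymal, 2 of 7 pericyte and 1 of 10 microglia markers were lower, and 7 of 7 endothelial markers higher. Scripts were tested on simulated data. Alternatives were pseudocounts of 0.1 and 10, no filter or a stricter one (mean of at least 100), quantile normalization, TMM factors, equal totals, rows of a gene summed, array weights, no variance trend, a replicate block, each pup left out, and 3 marker level covariates chosen after seeing the data. Other steps used Python 3.11.15 with scipy 1.17.1, matplotlib 3.10.9, pandas 2.3.3 and numpy 2.4.6.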

Additional observations from a re-analysis of the deposited data

How the results depend on the processing

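None of the 10 transcripts reached an adjusted p of 0.05 in limma under any of the 27 alternatives (smallest 0.0957, for *Igfbp5* with the replicate block). The log2 fold changes of *Insr* (0.029 to 0.36), *Igfbp4* (-0.52 to -0.011) and *Igfbp5* (-0.43 to -0.11) stayed on 1 side of 0 in all 27, those of *Insr* with the progenitor covariate and *Igfbp4* with equal totals close to it. With all pups set to equal totals, which moved the median of all rows to 0.20, the log2 fold changes of *Igf1r*, *Igf2r* and *Irs2* were 0.13, 0.14 and 0.021. With the choroid plexus marker level as covariate, *Igf2* was at 0.32, *Igfbp2* at 0.29 and *Igfbp3* at 0.88. *Igf1* was at 0.21 with equal totals, -0.10 with array weights, -0.13 and -0.18 with the neuron and progenitor levels as covariates, and between -0.11 and 0.11 with 1 pup left out. *Igfbp3* lay between -0.16 and 0.41 with 1 pup left out. The cause of these moves was not tested.

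The number of rows called at an adjusted p of at most 0.05 was 0 as reported, 40 with array weights, 3 with the choroid plexus covariate and 0 to 179 with 1 pup left out (179 without PTU pup 2, 7 without control pup 6). The number of the 10 transcripts with an unadjusted p under 0.05 was 1 as reported (16.3% of all rows), 0 with equal totals and with the neuron covariate (11.4% and 5.36% of all rows), 3 with array weights (*Igf2*, *Igfbp2* and *Igfbp5*, beside 19.5%), 2 with the choroid plexus covariate (*Igfbp3* and *Igfbp5*, beside 11.3%), 1 with the progenitor covariate (*Igfbp4* in place of *Igfbp5*, beside 4.39%) and 1 to 3 with 1 pup left out (beside 12.3 to 20.5%). Without PTU pup 4 they were *Igf2*, *Igfbp2* and *Irs2*, without control pup 1 *Igf2*, *Igfbp5* and *Irs2*, without control pup 6 *Igf2* and *Igfbp2*, without PTU pup 5 *Igfbp5* and *Irs2*, and without control pup 4 *Igfbp5* and *Insr*. Without PTU pup 1 it was *Igf2* in place of *Igfbp5*. The correlation of *Igfbp2* with meningeal markers was 0.66 without control pup 6 and PTU pup 6.

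Replicate numbers belong to pups of different litters, and deviations of pups with the same number correlated at -0.07 to 0.20, so the numbers were not taken as pairs. Only pups 1 and 2 matched best with their own number. With the number as a replicate block, 18 rows were called, 4 of the 10 transcripts had an unadjusted p under 0.05 (*Igf2*, *Igfbp2*, *Igfbp5* and *Irs2*) beside 20.2% of all rows, and *Igf1* was at -0.018. The spread between 6 or 7 pups per group limits these comparisons, as the 95% intervals show.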
